A study of Mus musculus with 70 samples.

Results

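The step from CLP to CILP in the absence of Id2 was read from 4 of the 70 samples of the series: 2 libraries of Id2 knockout CLP and 2 of Id2 knockout CILP. They were taken by their labels alone, as the batch 1 samples of genotype Id2 whose cell type is CLP or CILP. CLP are common lymphoid progenitors and CILP are common innate lymphoid progenitors, both sorted from mouse bone marrow. Each sample held 100 cells, and its polyadenylated RNA was read at the 3′ end by CEL-seq, a method that tags each sample with a barcode and amplifies its RNA linearly. The knockout samples came from Id2-/- mice, and no agent was applied. The references were wild-type CLP (8 libraries, 3 of them in batch 1) and wild-type CILP (7 libraries, 3 in batch 1), and, where named, CLP (5) and CILP (4) of TCF7-/- mice. Sort gates, the age of the mice, the extent of the Id2 deletion and whether 2 libraries of a group came from different mice are not given in the sources used here. P-values therefore measure the spread between libraries, which may be technical.

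Innate lymphoid cells (ILC) are tissue lymphocytes that carry no rearranged antigen receptor. Their progenitors arise from lymphoid progenitors that can still give B cells, T cells and dendritic cells. Id2 is a helix-loop-helix protein without a DNA-binding region: it pairs with E proteins (the products of Tcf3, Tcf4 and Tcf12) and keeps them off DNA at the sequence called the E-box. E proteins drive B cell, T cell and plasmacytoid dendritic cell (pDC) genes, and Id2 is a classical mark of committed ILC progenitors.

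The 2 Id2 knockout CLP libraries held 134985 and 267545 gene counts and the 2 Id2 knockout CILP libraries 160289 and 224239, within the range of wild-type CLP (81976 to 246119) and CILP (42266 to 624668) except for the CLP library of 267545. The 8 control wells of batch 1, which held spike-in RNA and no cells, had 51 to 9439 gene counts (median 1423). Counts on the 13 protein-coding mitochondrial genes made up 0.446% and 0.684% of the Id2 knockout CLP libraries and 0.172% and 0.354% of the CILP libraries. Batch 1 wild-type libraries held 0.752% to 0.945% in CLP and 1.08% to 1.33% in CILP. Mitochondrial ribosomal RNA is not in these shares. Its gene mt-Rnr2 alone made up 1.37% of the second knockout CLP library. Counts on ribosomal protein genes made up 6.09% and 6.68% of knockout CLP and 9.87% and 9.69% of knockout CILP. In batch 1 wild type they made up 5.14% to 5.87% of CLP and 5.77% to 6.99% of CILP. The part of either measure in the results was not tested. Levels are given as CPM, the usual scaling of counts to a common library total, here with TMM factors. In sorted bulk samples, fewer cells of a type and less RNA per cell cannot be told apart.

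The 3 genes that mark the step, Gata3, Tcf7 and Zbtb16, were absent from both knockout CLP libraries and present in both knockout CILP libraries, at levels below every wild-type CILP library. Gata3, a zinc finger factor needed for all ILC that express the interleukin 7 receptor, had 0 CPM in both Id2 knockout CLP libraries and 98.0 and 135.7 CPM in the CILP libraries. In wild type its lowest, median and highest values were 0, 12.8 and 588.1 CPM in CLP and 912.3, 1923.1 and 4179.7 CPM in CILP. The knockout groups did not overlap each other, and both knockout CILP libraries lay below the lowest wild-type one. Tcf7, which encodes TCF-1, had 0 CPM in both knockout CLP libraries and 24.5 and 67.8 CPM in CILP, against 166.2 to 779.2 CPM (median 384.6) in wild-type CILP. Zbtb16, which encodes PLZF, had 0 CPM in both knockout CLP libraries and 55.2 and 22.6 CPM in CILP, against 185.9 to 524.5 CPM (median 325.3) in wild-type CILP. Knockout CILP was at least 15.8-fold higher than knockout CLP for Gata3, at least 6.5-fold for Tcf7 and at least 4.8-fold for Zbtb16, bounds of the pooled level of the 2 CILP libraries (total counts over total scaled library size) against 3 counts over the 2 CLP libraries. The same pooling, which weights the deeper library more, holds for every such bound, and bounds cover counting error only. A control well of batch 1 held 33 Gata3 counts, while the 2 knockout CILP libraries held 16 and 30. In exact 2-sided permutation tests of Id2 knockout against wild-type CILP (2 against 7 libraries), Gata3, Tcf7 and Zbtb16 each gave p = 0.0556, which is the smallest p that these numbers allow (adjusted p = 0.148 over the 8 tests of 4 genes in CLP and CILP). Within batch 1 (2 against 3 libraries) each gave p = 0.2, again the smallest possible.

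Id2 itself did not separate the genotypes as cleanly. It had 0 CPM in both knockout CLP libraries and 116.4 and 27.1 CPM (19 and 6 counts) in knockout CILP. In wild type it had 0, 0 and 84.8 CPM (lowest, median, highest) in CLP and 79.6, 674.8 and 2286.3 CPM in CILP. The higher knockout CILP library thus lay above the lowest wild-type CILP library, although both lay below the batch 1 wild-type CILP libraries (1083.9 to 2286.3 CPM). The knockout and wild-type CILP levels gave an exact permutation p of 0.111 (adjusted p = 0.222 over the same 8 tests). Control wells held 14 Id2 counts, in 2 of the 8 wells. A tag near the 3′ end checks a knockout only where it lies in the deleted part, and the deleted part is not known here.

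**Figure D1:**
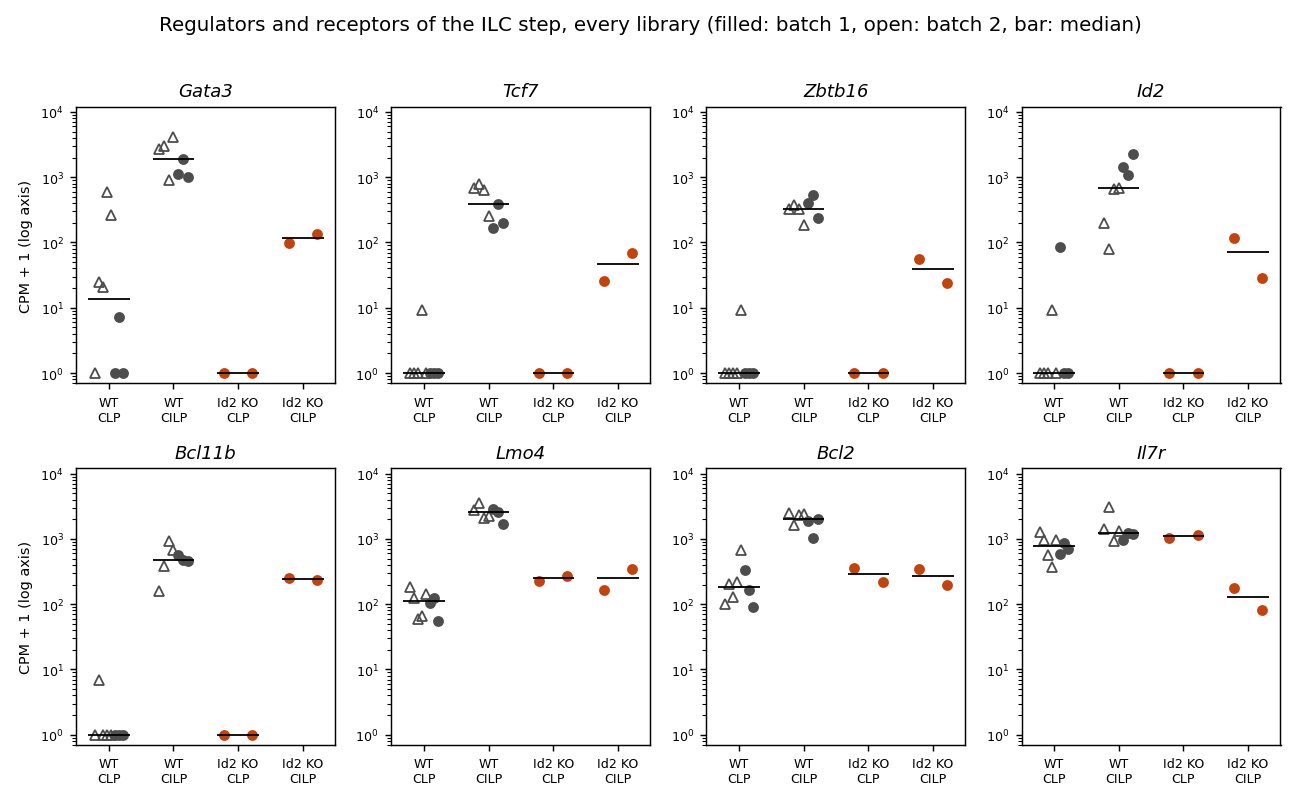
Level of 8 genes in every CLP and CILP library of wild type (grey) and Id2 knockout (orange), as CPM + 1 on a log axis. Filled circles are batch 1 libraries, open triangles batch 2, and bars are group medians. Both Id2 knockout CILP libraries lie below all wild-type CILP libraries for Gata3, Tcf7, Zbtb16, Lmo4, Bcl2 and Il7r.

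Across all genes, the Id2 knockout step was tested first in a model of 47 libraries of all groups with a batch term. Of 10972 genes, 3 passed an adjusted p of 0.05 (0.0273%, edgeR's quasi-likelihood test with Benjamini-Hochberg adjustment), and 487 (4.44%) had an unadjusted p under 0.05. The 3 were Bcl11b, which rose, and Mpeg1 and Tcf4, which fell. The same model called 473 genes (4.31%) in the wild-type step, 257 higher (2.34%) and 216 lower (1.97%), from 8 and 7 libraries. No call of the knockout step remained when either knockout CILP library was left out, and 1 was made when either CLP library was left out.

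Bcl11b, a zinc finger factor of T cell and group 2 ILC commitment, had 0 CPM in both Id2 knockout CLP libraries and 251.2 and 230.6 CPM in CILP. In wild-type CILP it ranged from 159.9 to 920.3 CPM (median 468.5), so both knockout CILP libraries lay within the wild-type range. It was at least 31.7-fold higher in knockout CILP than CLP, with a fitted log2 change of 8.16 (SE 1.72, adjusted p = 0.0281, edgeR). In CILP of Tcf7 knockout mice, Bcl11b was between 0 and 28.5 CPM (median 0, n = 4).

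Mpeg1, which encodes the pore-forming perforin-2 of phagocytic cells, fell in the knockout step. It had 764.7 and 1851.0 CPM in the CLP libraries and 0 CPM in both CILP libraries, at least 186.2-fold lower (fitted log2 change −10.60, SE 1.64, adjusted p = 4.05e-05, edgeR). Wild-type CLP held 262.4 to 1796.8 CPM (median 901.4) and wild-type CILP 0 to 59.4 CPM (median 28.0). Tcf4, which encodes the E protein E2-2 required by pDC, had 3603.3 and 3217.4 CPM in knockout CLP and 226.7 and 167.3 CPM in knockout CILP. Its fitted log2 change was −4.11 (SE 0.87, adjusted p = 0.0281, edgeR). In wild type it went from 345.1, 610.8 and 3712.7 CPM (lowest, median, highest) in CLP to 174.5, 356.9 and 671.3 CPM in CILP, and the 3 batch 1 CLP libraries held 1553.1 to 3712.7 CPM. Knockout CLP lay inside the wild-type range for Tcf4, and for Mpeg1 the second CLP library lay just above it.

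All Id2 knockout libraries are in batch 1, so the step was also fitted on the 22 libraries of that batch alone. That fit called 92 of 8656 genes (1.06%): 28 higher (0.323%) and 64 lower (0.739%) in knockout CILP. Leaving out 1 knockout library in turn gave 35 to 53 calls, and 17 of the 92 genes were called in all 4 of these fits. Those 17 were Bcl11b, Trib2, Car1 and Apoe among the genes that rose, and Mpeg1, Tcf4, Irf8, Siglech, Runx2, Cox6a2, Cybb, Ncf1, Ctsb, Unc93b1, Nucb2, Kctd12 and Macroh2a1 among those that fell. Adjusted p-values given below are edgeR's quasi-likelihood values from the batch 1 fit unless the 47-library model is named. Below, "passed" refers to an adjusted p under 0.05, and so do counts of list members that rose or fell. Each such count for the knockout step of batch 1 is to be read beside 0.323% higher and 0.739% lower over all genes.

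Genes of the pDC programme fell together. Of the 16 pDC genes tested in batch 1, 8 passed and all 8 fell in the knockout step, with a median log2 change of −4.87 against 0.00 over all genes tested. With genes at 0 in a group put at their bound, the median was −4.23. In the 47-library model 1 of 17 passed, and in 15 of the 17 both CILP libraries lay below both CLP libraries, where 16.6% of all genes did. Their summed level was 14984.9 and 21517.1 CPM in the Id2 knockout CLP libraries and 1329.8 and 786.9 CPM in the CILP libraries. Wild-type CLP held 12072.6 to 17094.2 CPM in batch 1, and 4203.6 to 17094.2 CPM (median 5802.0) in both batches. In the wild-type step of batch 1, 9 of the 16 fell, with a median of −4.52.

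Siglech, a surface lectin that defines mouse pDC, had 1412.4 and 1779.5 CPM in Id2 knockout CLP and 0 CPM in both CILP libraries, at least 210.8-fold lower (adjusted p = 3.7e-17). Wild-type CLP ranged from 49.0 to 1281.0 CPM (median 308.3), so both knockout CLP libraries lay above all 8, but the highest wild-type value was in batch 1. Irf8, a factor of dendritic and monocyte fate, had 4567.8 and 2991.0 CPM in CLP and 147.1 and 36.2 CPM in CILP (log2 change −5.42, SE 0.55, adjusted p = 4.6e-19). Runx2, which pDC need to leave the marrow, had 861.2 and 1163.8 CPM in CLP and 55.2 and 31.7 CPM in CILP (log2 change −4.57, SE 0.73, adjusted p = 3.49e-07). None of these 3 genes overlapped between the knockout groups. Spib, an Ets factor of pDC and B cells, had 289.4 and 722.9 CPM in CLP and 18.4 and 9.0 CPM in CILP (adjusted p = 0.000874). Cox6a2, a respiratory chain subunit enriched in pDC, had 310.0 and 647.5 CPM in CLP and 0 and 13.6 CPM in CILP (adjusted p = 1.33e-05). Ly6c2 (adjusted p = 0.00123) and the chemokine receptor gene Ccr9 (adjusted p = 0.018) completed the 8.

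Among 14 tested genes of conventional dendritic cells and MHC class II, 4 fell and none rose, where 0.739% of all genes fell. Their median log2 change was −4.11 (−2.07 at the bounds). In the wild-type step 2 fell, with a median of −0.59. H2-Aa, an MHC class II chain, had 62.0 and 568.0 CPM in knockout CLP and 0 CPM in both CILP libraries, and H2-Eb1 had 89.6 and 544.2 CPM against 0 and 0. Their adjusted p-values were 7.6e-05 and 0.000763, and the second CLP library held most of the signal. Cd74, the class II invariant chain, had 68.9 and 508.4 CPM in CLP and 0 and 4.5 CPM in CILP (adjusted p = 0.00646). Flt3, the cytokine receptor of dendritic and lymphoid progenitors, had 241.1 and 333.7 CPM in CLP and 0 CPM in both CILP libraries, at least 38.4-fold lower (adjusted p = 0.000771). Ncf1, Cybb and Ctss, which are on no list, also fell, and Cybb was picked after its values were seen. Ncf1, a subunit of the phagocyte oxidase, had 427.2 and 270.1 CPM in knockout CLP and 0 CPM in both CILP libraries, at least 42.0-fold lower (adjusted p = 2.32e-06). Cybb, the catalytic subunit of the same oxidase, had 261.8 and 472.7 CPM in CLP and 0 CPM in both CILP libraries, at least 50.7-fold lower (adjusted p = 2.47e-05). Ctss, which encodes cathepsin S, had 248.0 and 627.6 CPM in CLP and 6.1 and 0 CPM in CILP (adjusted p = 0.000105).

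Recombinase and lymphoid priming genes also fell in the knockout step. Of 14 tested, 5 fell in batch 1, among them Dntt, Flt3, Il7r and Ccr9, with a median log2 change of −2.56, and 6 fell in the wild-type step, with a median of −1.88. In 13 of the 14, both knockout CILP libraries lay below both CLP libraries, against 16.6% of the 10972 genes tested over both batches. Dntt, the template-free polymerase of antigen receptor joints, had 1936.0 and 1894.7 CPM in knockout CLP and 232.9 and 411.5 CPM in CILP (log2 change −2.60, SE 0.48, adjusted p = 3.14e-05). Wild-type CLP started higher, at 3095.9 to 4373.0 CPM in batch 1 and a median of 9730.5 CPM over both batches, and wild-type CILP held 0 to 1652.6 CPM (median 122.7). Both knockout CLP libraries were below the lowest of the 8 wild-type CLP libraries for Dntt. Rag1, a recombinase subunit, had 137.8 and 345.6 CPM in CLP and 30.6 and 9.0 CPM in CILP without passing (adjusted p = 0.0916). Of 14 early B lineage genes 3 fell, against 0.739% of all genes. Blnk, an adaptor of the pre-B cell receptor, had 323.8 and 305.9 CPM in CLP and 12.3 and 0 CPM in CILP (adjusted p = 0.00294). Vpreb3, a chaperone of immunoglobulin assembly, had 254.9 and 147.0 CPM in CLP and 0 CPM in both CILP libraries, at least 23.9-fold lower (adjusted p = 0.00947).

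**Figure D2:**
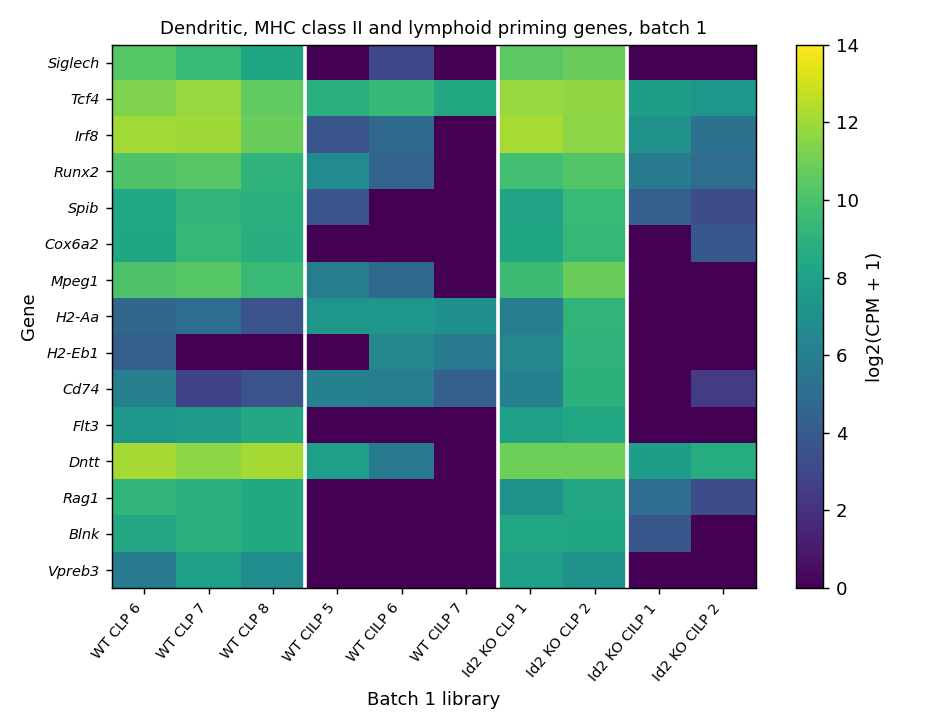
log2(CPM + 1) of 15 dendritic, MHC class II and lymphoid priming genes (rows) in the 10 batch 1 libraries of wild-type and Id2 knockout CLP and CILP (columns, white lines between groups). Siglech, Irf8, Mpeg1 and Flt3 are high in CLP of both genotypes and low or 0 in CILP, and H2-Aa is 0 in both Id2 knockout CILP libraries while wild-type CILP libraries hold 128.0 to 167.8 CPM.

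Among the E proteins, Tcf4 was the one that passed. Tcf3, which encodes E2A, had 303.1 and 250.2 CPM in knockout CLP and 79.7 and 470.3 CPM in CILP. Tcf12, which encodes HEB, had 206.7 and 127.1 CPM in CLP and 153.2 and 307.5 CPM in CILP. For both genes the CLP values lay between the CILP values or overlapped them. Of the other Id genes, Id1 had 0 CPM in both knockout CLP libraries and 42.9 and 13.6 CPM in CILP, Id3 had 13.8 and 23.8 CPM in CLP and 85.8 and 22.6 CPM in CILP, and Id4 was at 0 in all 4 libraries. Of 13 tested genes known to be activated by E proteins, 3 fell (Dntt, Blnk and Ccr9) and none rose, where 0.739% of all genes fell. The median log2 change of the 13 was −2.60. In the wild-type step 4 of them fell and 1 rose, with a median of −3.35.

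Because Id2 acts through the E-box, the E-box (CANNTG, the same on both strands) was counted in the 250 bases before 1 transcript start per gene (RefSeq, GRCm38.p6). The sequences of the gene that fell with the smallest p in the 47-library model (Mpeg1), the pDC marker Siglech and the mast cell gene Cpa3 are shown 5′ to 3′ on the strand of the gene, with E-boxes in capitals.
Mpeg1: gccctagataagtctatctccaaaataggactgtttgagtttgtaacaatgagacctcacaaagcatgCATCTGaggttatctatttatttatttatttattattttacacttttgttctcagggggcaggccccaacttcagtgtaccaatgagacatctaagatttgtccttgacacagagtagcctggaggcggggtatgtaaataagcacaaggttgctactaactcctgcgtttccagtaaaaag
Siglech: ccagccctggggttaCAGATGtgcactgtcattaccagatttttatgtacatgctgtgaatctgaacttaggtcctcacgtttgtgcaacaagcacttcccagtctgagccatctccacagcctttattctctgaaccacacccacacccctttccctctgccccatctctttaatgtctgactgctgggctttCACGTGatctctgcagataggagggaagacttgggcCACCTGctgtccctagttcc
Cpa3: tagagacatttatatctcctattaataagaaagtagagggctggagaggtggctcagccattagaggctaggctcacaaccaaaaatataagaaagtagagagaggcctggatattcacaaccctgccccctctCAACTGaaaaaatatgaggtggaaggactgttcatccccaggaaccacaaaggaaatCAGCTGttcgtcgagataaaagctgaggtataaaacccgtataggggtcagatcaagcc
These are chr19:12460520-12460769 on the plus strand for Mpeg1, chr7:55767934-55768183 on the plus strand for Siglech, and chr3:20242182-20242431 on the minus strand for Cpa3. The annotated gene reaches beyond the transcript start used, so that the last 30 bases shown for Siglech and the last 28 for Cpa3 lie inside the gene. Siglech held 3 E-boxes, the first of which began 235 bases before that transcript start and the last 20 bases before it. Cpa3 held 2 and Mpeg1 held 1. An E-box was present in 66.0% of all 27025 windows and in 56.3% of the 8482 windows of genes tested in the 47-library model. The share over the 8656 genes tested in batch 1 was not taken. It was present in 39 of 50 windows (78.0%) of genes that fell in the knockout step of batch 1 and in 13 of 23 (56.5%) of genes that rose. Another sequence, AGATAA on either strand, was counted in the same windows. It was present in 18.0% of windows of genes that fell, 17.4% of those that rose and 5.93% of those tested. Thus a sequence that is no E-box was also more frequent among called genes, in both directions. Differences between these shares were not tested. A match describes letters in this window and not a bound site.

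A minority of the ILC factors passed in the knockout step. Tcf7 and Zbtb16, absent from both knockout CLP libraries and present in both CILP libraries, did not pass. Of 17 tested transcription factors and cofactors of early ILC progenitors, 3 passed in batch 1, all of them higher. The median log2 change of the 17 was 1.88 (1.40 with genes at 0 in a group put at their bound). In the wild-type step 10 passed as higher, with a median of 5.80. Over all genes of batch 1, the wild-type step had 168 calls (1.94%), 62 higher (0.716%) and 106 lower (1.22%). The 3 were Bcl11b (adjusted p = 2.32e-06), Id2 (adjusted p = 0.00159) and Gata3 (log2 change 7.0, SE 1.46, adjusted p = 0.00392). In the 47-library model 1 of 18 passed (Bcl11b), and in 9 both CILP libraries lay above both CLP libraries, against 17.8% of all genes. Gata3 passed in none of the 4 fits that left out 1 knockout library, Id2 in 1 and Bcl11b in all 4. The summed level of the 18 factors was 702.7 and 647.5 CPM in knockout CLP and 1813.9 and 1935.6 CPM in knockout CILP. In wild type it was 415.2 to 1053.6 CPM (median 549.3) in CLP and 8963.9 to 14432.8 CPM (median 11939.8) in CILP. The highest knockout CILP library was thus below the lowest wild-type CILP library, with no overlap.

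Several factors that mark wild-type CILP had few or no counts in the knockout. Rora, an orphan nuclear receptor of group 2 ILC, had 0 and 4.5 CPM in knockout CILP against 23.7 to 365.8 CPM (median 223.7) in wild type. Tox, an HMG-box factor of early ILC progenitors, had 55.2 and 40.7 CPM in knockout CILP and 0 and 19.9 CPM in knockout CLP, against 337.4 to 930.1 CPM in wild-type CILP. Pdcd1, which encodes the receptor PD-1 found on ILC precursors, had 12.3 and 4.5 CPM in knockout CILP against 134.9 to 594.4 CPM in wild type. Maf had 0 and 18.1 CPM against 179.0 to 747.0 CPM. Both knockout CILP libraries lay below all 7 wild-type libraries for these 4 genes. Ikzf2, which encodes Helios, came closer to wild type, with 192.9 and 23.8 CPM in knockout CLP and 337.0 and 651.2 CPM in knockout CILP, against 664.9 to 4407.0 CPM in wild-type CILP. Runx3 had 386.1 and 289.4 CPM in knockout CILP, within the wild-type range of 95.2 to 510.5 CPM.

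The difference between the knockout and the wild-type step was tested directly as an interaction. In the 47-library model 4 of 10972 genes passed (0.0365%), all lower in the knockout: Ccr2, H2-Eb1, Lmo4 and the gene model 1700113H08Rik. At an unadjusted p under 0.05, 528 genes (4.81%) differed in that model. The batch 1 fit called 35 of 8656 (0.404%), 18 more positive (0.208%) and 17 more negative (0.196%) in the knockout. Leaving out 1 knockout library in turn gave 14 to 19 calls, and 8 genes were called in all 4 fits: Il7r, Lmo4, Ccr2, H2-Aa, Car1, Car2, Aqp1 and Apoe. For genes at 0 in both CLP groups the interaction says little, since each step is then a ratio to 0.

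Lmo4, a LIM-domain adaptor of transcription factors, was the ILC factor whose step differed. It had 227.4 and 266.1 CPM in knockout CLP and 165.5 and 339.2 CPM in knockout CILP, so the groups overlapped. Wild-type CLP held 55.1 to 184.0 CPM (median 112.0) and wild-type CILP 1682.7 to 3528.4 CPM (median 2552.5), with no overlap. The log2 difference of the steps was −4.52 in the 47-library model (adjusted p = 0.0134) and −4.62 in batch 1 (adjusted p = 9.13e-06). Bcl2, the survival factor, had 358.3 and 218.5 CPM in knockout CLP and 343.2 and 199.0 CPM in knockout CILP, against medians of 183.8 and 2011.9 CPM in wild type. Its log2 difference of steps was −3.19 in batch 1 (adjusted p = 0.0259) and did not pass in the 47-library model (adjusted p = 0.72).

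Il7r, the interleukin 7 receptor chain on which lymphoid progenitors depend, fell in the knockout step. It had 1026.6 and 1151.9 CPM in Id2 knockout CLP and 177.7 and 81.4 CPM in CILP. Wild-type CLP held 375.7 to 1257.6 CPM (median 777.5) and wild-type CILP 920.3 to 3132.1 CPM (median 1223.8). The knockout CILP libraries were the lowest of all 9 CILP libraries of the 2 genotypes, while knockout CLP lay inside the wild-type range. The log2 change was −3.11 (SE 0.54, adjusted p = 5.64e-06) and the log2 difference from the wild-type step −3.76 (adjusted p = 2.91e-05), and in the 47-library model the step had an adjusted p of 0.434. Ccr2, a chemokine receptor, had 27.6 and 190.7 CPM in knockout CLP and 0 CPM in both CILP libraries, with most of the CLP signal in the second library. In wild type it went the other way, from 0 to 11.9 CPM in CLP to 296.8 to 1207.1 CPM (median 739.8) in CILP. The log2 difference was −13.99 in the 47-library model (adjusted p = 9.22e-07). Il18r1, a chain of the interleukin 18 receptor, had 20.7 and 75.5 CPM in knockout CLP and 6.1 and 9.0 CPM in CILP, against 344.3 to 991.7 CPM (median 712.4) in wild-type CILP (difference in batch 1, adjusted p = 0.0259). H2-Aa and H2-Eb1, described above, were at 0 in knockout CILP, while wild-type CILP held 128.0 to 684.4 CPM of H2-Aa and 0 to 373.5 CPM of H2-Eb1.

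The genes that changed in the wild-type step were then read in the knockout. For the 257 genes called higher in the wild-type step of the 47-library model, the median log2 change was 5.23 in wild type. In the Id2 knockout it was 0.29 (0.00 at the bounds). Of the 257, 86 had 0 counts in both knockout CILP libraries, as had 1878 of all 10972 genes. In 82 of the 257 (31.9%) both knockout CILP libraries lay above both CLP libraries, against 17.8% of all genes. Over the 216 genes called lower, the median was −4.51 in wild type and −2.25 in the knockout (−1.68 at the bounds), and in 123 (56.9%) both knockout CILP libraries lay below both CLP libraries, against 16.6% of all genes. In batch 1, 34 genes were called lower in both genotypes, which is 53.1% of the 64 knockout calls and 32.1% of the 106 wild-type calls. By contrast 9 were called higher in both, which is 32.1% of the 28 knockout calls and 14.5% of the 62 wild-type calls. Those 9 were Bcl11b, Gata3, Id2, Cpa3, Prss34, Itga2b, Cd63, Trib2 and Slc22a3. The 2 steps share no library. However, the 257 and 216 genes were chosen by their wild-type p, which enlarges their wild-type medians. The gap between wild-type and knockout medians is therefore no estimate of what was lost. Numbers of calls, and so the shares called in both, also depend on the number of libraries, which was smaller for the knockout.

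**Figure D3:**
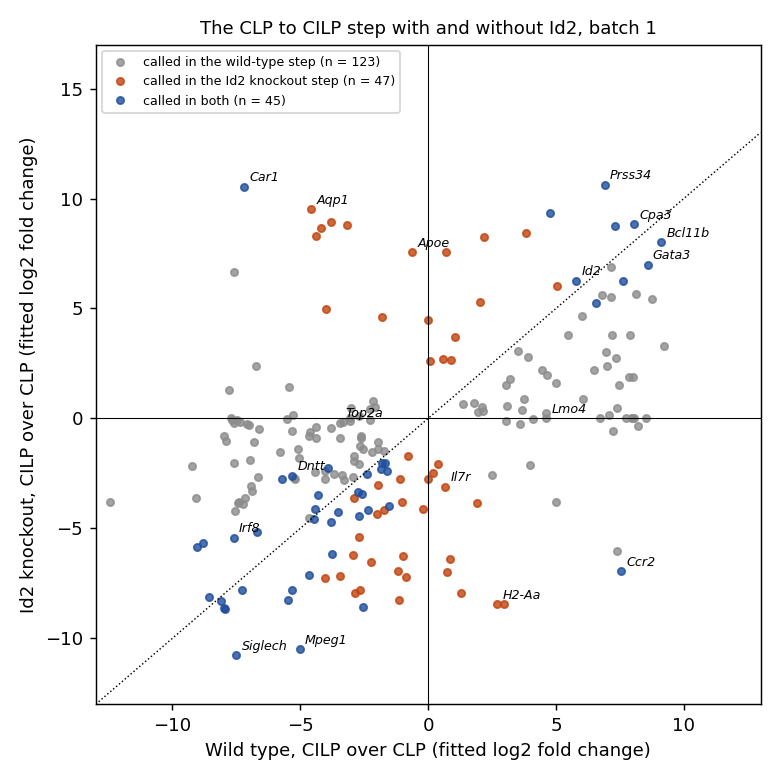
Fitted log2 fold change of CILP over CLP in wild type (x axis) and Id2 knockout (y axis) for the genes that passed in either step of batch 1, with the line of equal change dotted. The 123 genes called in wild type alone (grey) lie on both sides, the 47 called in the knockout alone (orange) include Apoe and Aqp1, and 45 were called in both (blue), of which Car1 and Ccr2 have opposite signs.

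Of the 7 mast cell and basophil genes tested in batch 1, 3 rose in the knockout step (Cpa3, Prss34 and Gata2). Of all genes, 0.323% rose. The median log2 change of the list was 6.73 (5.81 at the bounds). In the wild-type step 2 of the 7 rose, with a median of 5.06, and the difference of steps passed for none of them. The summed level of the 14 listed genes was 110.2 and 143.0 CPM in knockout CLP and 7396.5 and 4468.2 CPM in knockout CILP, where 8 and 9 of the 14 had counts. In wild-type CILP it was 164.6 to 4582.9 CPM (median 650.6), and the highest of these, a batch 1 library, lay between the 2 knockout libraries. Mcpt4, Tpsb2, Prg2, Epx and Il5ra, which mark mature connective tissue mast cells or eosinophils, were at 0 in all 4 knockout libraries, and the mast cell chymase gene Cma1 had 12 counts in 1 CILP library. In the 47-library model none of 8 tested passed, and 5 had an unadjusted p under 0.05, against 4.44% of all genes. In 7 of the 8 both CILP libraries lay above both CLP libraries, against 17.8% of all genes. Cpa3, mast cell carboxypeptidase, had 0 CPM in both knockout CLP libraries and 392.2 and 447.7 CPM in CILP, at least 56.1-fold higher (adjusted p = 0.00044). Wild-type CILP held 36.6 to 612.8 CPM of Cpa3 (median 286.3), so the knockout values lay inside the wild-type range. Prss34, a basophil protease, had 0 CPM in both CLP libraries and 2273.5 and 655.8 CPM in CILP, at least 177.6-fold higher (adjusted p = 0.000563), and was detected in 1 of 7 wild-type CILP libraries, at 320.6 CPM. Gata2, a factor of mast cells, basophils and stem cells, had 20.7 and 0 CPM in CLP and 612.8 and 719.1 CPM in CILP (log2 change 6.04, SE 1.59, adjusted p = 0.0184), against at most 71.2 CPM in wild-type CILP. Mcpt8, a further basophil protease, had 48.2 and 0 CPM in CLP and 3217.2 and 1546.7 CPM in CILP without passing (adjusted p = 0.82), and reached 3585.6 CPM in a wild-type CILP library. Fcer1a, the IgE receptor chain, had 0 CPM in both CLP libraries and 110.3 and 447.7 CPM in CILP, with an adjusted p of 0.0859.

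Of 11 tested erythroid and megakaryocyte genes, 4 rose (Gata1, Car1, Car2 and Itga2b) and Tfrc fell. Of all genes, 0.323% rose and 0.739% fell. The median log2 change of the 11 was 4.63 for the knockout (3.79 at the bounds) and −0.53 for the wild-type step. Car1, a carbonic anhydrase of early erythroid cells, had 0 CPM in both knockout CLP libraries and 1556.5 and 1198.5 CPM in CILP, at least 178.7-fold higher (adjusted p = 1.19e-07). In wild type Car1 was at 0 in most libraries and reached 384.7 CPM in CLP and 438.7 CPM in CILP, both below the knockout CILP values. Car2 had 0 and 35.7 CPM in CLP and 465.7 and 592.4 CPM in CILP (adjusted p = 5.25e-05). Gata1, the master factor of erythroid, megakaryocyte and mast cell fate, had 0 CPM in both CLP libraries and 91.9 and 470.3 CPM in CILP, at least 41.0-fold higher (adjusted p = 0.0359), against at most 34.4 CPM in wild-type CILP. Itga2b, the integrin chain CD41, had 0 CPM in both CLP libraries and 275.8 and 524.6 CPM in CILP, at least 55.4-fold higher (adjusted p = 0.00673), against 0 to 273.1 CPM (median 87.3) in wild-type CILP. Hba-a1, Hbb-bs, Alas2 and Slc4a1, which mark later red cells, were at 0 in all 4 libraries, and Hba-a2, a near copy of Hba-a1, had 7 counts in 1 CILP library. Beta globin reads were also counted under Hbb-b1, which is on no list and is not given for these libraries. Hbb-b1 made up 9.55% of the counts of 1 control well of batch 1. Klf1, an erythroid factor, had 0 CPM in CLP and 159.3 and 122.1 CPM in CILP (adjusted p = 0.172). In the 47-library model none of 14 tested passed, and in 7 both CILP libraries lay above both CLP libraries, against 17.8% of all genes. At an unadjusted p under 0.05, 7 were higher and 1 was lower, against 4.44% of all genes in either direction. The summed level of the 17 listed genes was 888.8 and 599.8 CPM in knockout CLP and 2726.9 and 3324.0 CPM in CILP, and 0 to 1329.7 CPM (median 523.6) in wild-type CILP. Tfrc made up most of that list's sum in knockout CLP, at 881.9 and 560.1 CPM, and had 116.4 and 99.5 CPM in knockout CILP. CILP of Tcf7 knockout mice held 331.9 to 34611.5 CPM of the same list and 302.4 to 3210.6 CPM of the mast cell list. Of 15 tested myeloid markers none passed in batch 1 (1 at an unadjusted p under 0.05, 0 by DESeq2 and 1 by limma-voom), and their summed level was 241.1 and 182.7 CPM in knockout CLP and 747.6 and 569.8 CPM in CILP. The part of cells of these lineages in the results was not tested.

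Of the 11 erythroid and megakaryocyte genes, the step differed from wild type in batch 1 for Car1 and Car2, and for Gata1 and Itga2b the difference had an adjusted p of 1. Aqp1 and Apoe, which are on no list, also differed. The log2 difference was 17.75 for Car1 (adjusted p = 2.1e-11), 6.45 for Car2 (adjusted p = 2.81e-05) and 14.08 for the water channel gene Aqp1 (adjusted p = 0.00018). Aqp1 had 0 CPM in both knockout CLP libraries and 900.8 and 443.2 CPM in CILP, while control wells held 27 Aqp1 counts. In the batch 1 wild-type libraries, Car1 and Aqp1 had counts in 1 CLP library (384.7 and 55.0 CPM) and in no CILP library, so the wild-type side of both differences rests on that library. Apoe, an apolipoprotein of macrophages and erythroid progenitors, had 0 and 11.9 CPM in knockout CLP and 1421.7 and 1587.4 CPM in CILP (log2 change 7.55, SE 1.26, adjusted p = 1.83e-06), against at most 126.9 CPM in wild-type CILP. DESeq2 on the 47 libraries did not call Car1 (adjusted p = 0.96), Aqp1 (0.89), Apoe (0.371), Prss34 (1) or Gata2 (1), and it called Cpa3 (0.0235).

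**Figure D4:**
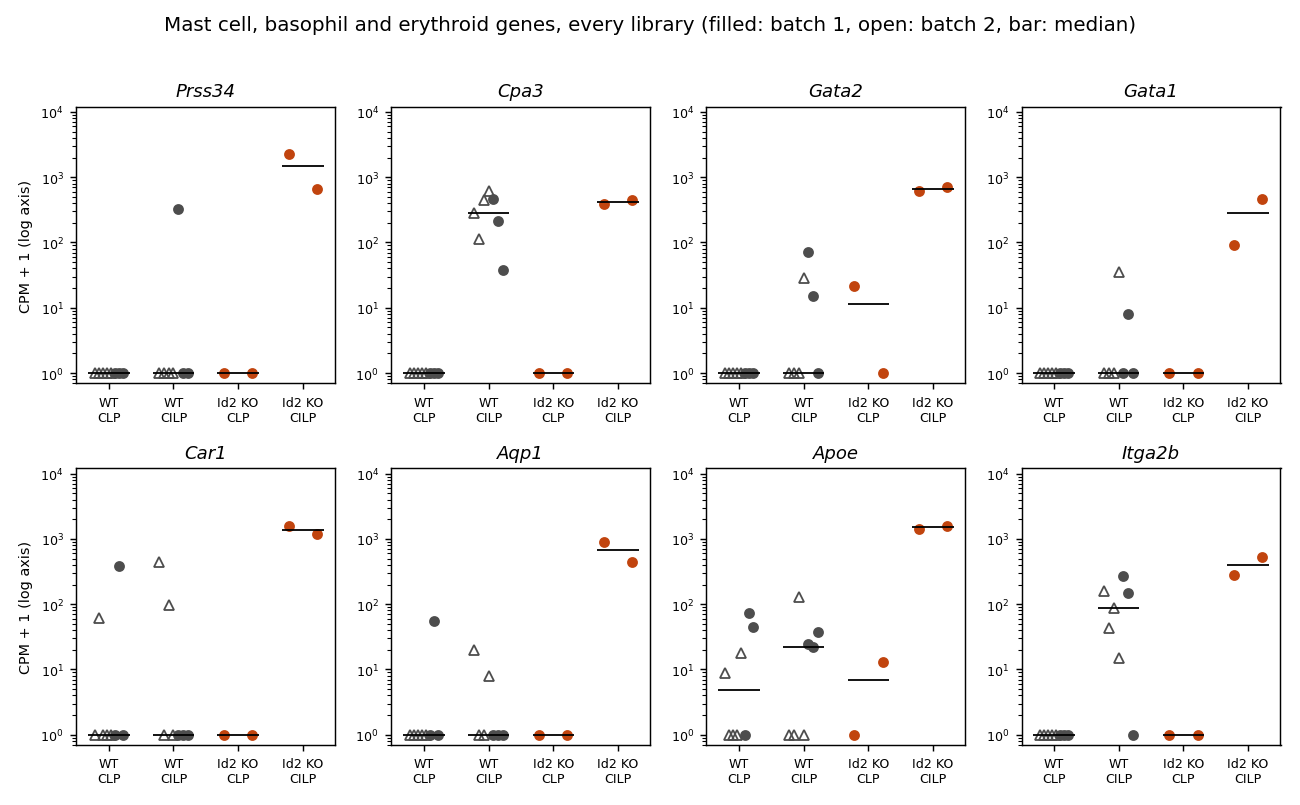
Level of 8 mast cell, basophil and erythroid genes in every CLP and CILP library of wild type (grey) and Id2 knockout (orange), as CPM + 1 on a log axis. Filled circles are batch 1 libraries, open triangles batch 2, and bars are group medians. Both Id2 knockout CILP libraries lie above all wild-type libraries for Prss34, Gata2, Gata1, Car1, Aqp1, Apoe and Itga2b, while for Cpa3 they lie inside the wild-type CILP range.

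Trib2, Cd63, Il1rl1 and Il2rb were among the other genes that rose in the knockout step. Trib2, a pseudokinase of the Tribbles family, had 0 CPM in both knockout CLP libraries and 845.7 and 361.8 CPM in CILP, at least 75.0-fold higher (adjusted p = 4.37e-05), and wild-type CILP held 47.5 to 347.5 CPM. Cd63, a granule and endosome tetraspanin, had 20.7 and 7.9 CPM in CLP and 1660.7 and 569.8 CPM in CILP (adjusted p = 8.48e-05). Il1rl1, the interleukin 33 receptor of mast cells, basophils and group 2 ILC, had 0 and 11.9 CPM in CLP and 202.2 and 153.8 CPM in CILP (adjusted p = 0.00149), against 0 to 6.9 CPM in wild-type CILP. Kit, the stem cell factor receptor, had 41.3 and 143.0 CPM in CLP and 710.8 and 556.3 CPM in CILP, above all 7 wild-type CILP libraries (83.1 to 483.5 CPM), and did not pass (adjusted p = 0.218). Il2rb, a shared chain of the interleukin 2 and 15 receptors, had 0 CPM in both CLP libraries and 288.0 and 58.8 CPM in CILP (adjusted p = 0.046). Wild-type CILP held 0 to 204.5 CPM of Il2rb, a range that holds the lower of the 2 knockout values.

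The summed level of cell cycle genes in knockout CILP was above that of every wild-type CILP library. None of the 29 cell cycle genes tested in batch 1 passed in the knockout step (1 at an unadjusted p under 0.05, and 0 by DESeq2 or limma-voom on the 47 libraries), while 3 fell in the wild-type step. Their summed level was 7833.5 and 8361.4 CPM in knockout CLP and 7886.7 and 5761.6 CPM in knockout CILP, and in wild type it had a median of 6926.4 CPM in CLP and 2213.1 CPM in CILP. The highest wild-type CILP library held 3539.3 CPM. Top2a, the topoisomerase of dividing cells, had 2142.7 and 2069.5 CPM in knockout CLP and 2543.1 and 1230.1 CPM in CILP, against a wild-type CILP range of 68.3 to 571.2 CPM. Its log2 difference of steps was 3.25 in batch 1 (adjusted p = 0.000209) and did not pass in the 47-library model (adjusted p = 1). Of 14 tested stem and multipotent progenitor genes, 1 rose (Gata2) and 1 fell (Cd93) in the knockout step, with a median log2 change of −0.21, and 1 rose and 3 fell in the wild-type step, with a median of −1.48. The summed level of all listed genes was 3727.3 and 3269.1 CPM in knockout CLP and 3762.6 and 4649.1 CPM in knockout CILP, against 585.3 to 2251.7 CPM in wild-type CILP. Of this list, Myb and Lmo2 were picked after their values were seen. Myb, a factor of proliferating progenitors, had 799.2 and 750.7 CPM in CLP and 1115.3 and 1379.4 CPM in CILP, against 142.5 to 669.2 CPM in wild-type CILP, and its difference of steps did not pass (adjusted p = 0.299). Lmo2, a stem cell cofactor, had 310.0 and 150.9 CPM in CLP and 269.6 and 199.0 CPM in CILP, against 0 to 11.9 CPM in wild-type CILP (difference, adjusted p = 0.0822).

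The nearest other step in the series is that of Tcf7 knockout mice, where 58 of 10972 genes passed in the 47-library model (0.529%). The difference between the Id2 and Tcf7 knockout steps passed for Ccr2 alone (0.00911%), with a log2 difference of −12.23 (SE 1.91, adjusted p = 4.36e-05, edgeR). Tcf7 knockout CILP held 339.9 to 1816.1 CPM of Ccr2 (median 1000.7), where both Id2 knockout CILP libraries were at 0. Gata3 was at 88.9 to 663.7 CPM (median 299.8) in Tcf7 knockout CILP, a range that holds both Id2 knockout values. Lmo4 was at 160.1 to 957.3 CPM (median 353.5) there, which also holds both Id2 knockout values. Kit (106.7 to 979.8 CPM), Gata2 (12.8 to 999.8 CPM) and Car1 (25.5 to 1435.8 CPM) overlapped the Id2 knockout CILP values too.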

How the data were processed

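The authors deposited read counts per gene, in a table for each batch. CASAVA 1.8.2, featureCounts, limma, edgeR (versions 3.8.2 and 3.22.0) and the build mm10 are named in the submitters' processing notes. The sources used here give no aligner and mention no molecular identifiers. Of 27179 Entrez identifiers, 25275 (92.99%) matched a symbol in RefSeq's annotation of GRCm38.p6. Value columns that could not be tied to a sample numbered 0.

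The 4 technical repeats named in the labels were added to their parent library. Control wells, the libraries labelled Nfil and 1 wild-type library that the submitters call an outlier were left out of the model of 47 libraries. The deposited counts were tested with edgeR 4.0.16 in R 4.3.3: filterByExpr by group (10 counts at least and 15 over all libraries), scaling by TMM, then a robust quasi-likelihood fit of group means plus batch, with 35 residual degrees of freedom and a biological coefficient of variation of 109.7%. Groups of 2 libraries were assumed to vary like the others. Genes passed at a Benjamini-Hochberg adjusted p under 0.05 over all genes tested. Where a group had 0 counts, a fold is a bound of the other group's pooled level against 3 counts over that group, and a fitted change depends on the prior count of 0.125 and is no bound. Exact permutation tests used log2(CPM + 1). The 2 knockout libraries of each group were different libraries by their counts (chi-square per degree of freedom 7.12 for CLP and 6.48 for CILP). The procedure was tested on simulated data.

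The members and gene lists were chosen with earlier results of these data known. The named genes were Id2, Gata3, Tcf7 and Zbtb16, the ILC factors and the E and Id proteins, the called genes of largest change (the 10 of smallest p where fewer than 5 were called in a direction), up to 4 members of each list by smallest p, up to 10 genes called in the difference of steps, and 20 of largest change in the wild-type step. Genes of the batch 1 fit outside this rule, such as Irf8, Dntt, Car2, Cd63 and the genes described for the cell cycle, were chosen after their values were seen. A gene that the rule selects is not reported here, although it stayed in all tests and counts. The alternatives tried were limma-voom with quality weights (limma 3.58.1), DESeq2 1.42.0, edgeR with DESeq2 size factors, fits without the filter or without batch, fits of batch 1 or of the Id2 knockout libraries alone, removal of libraries below 20% of the median total of their batch, and removal of single libraries. The libraries removed in turn were those of Id2 knockout CLP and CILP and of batch 1 wild-type CLP and CILP, and no others.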

Additional observations from a re-analysis of the deposited data

Results flagged for a closer look

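In the 47-library model the step differed between Id2 knockout and wild type, by the interaction test, for Ccr2 (log2 difference −13.99), H2-Eb1 (−14.21), 1700113H08Rik (−13.95) and Lmo4 (−4.52). H2-Eb1 and 1700113H08Rik had 0 counts in both knockout CILP libraries. The knockout CLP signal of 1700113H08Rik came from 1 library (117.1 and 0 CPM).

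In the batch 1 fit the steps differed, by the same test, for 17 genes with a more negative and 18 with a more positive knockout step. Of each, 12 are given here, those on a list, named by the rule or called in the knockout step itself. The knockout step was more negative for Ccr2 (−14.51), H2-Eb1 (−11.43), H2-Aa (−11.12), Hlf (−8.81), Cd74 (−7.28), Gsn (−5.75), Mpeg1 (−5.46), Il18r1 (−5.07), Lmo4 (−4.62), Il7r (−3.76), Bcl2 (−3.19) and Tyrobp (−2.73). It was more positive for Car1 (17.75), Aqp1 (14.08), Ces2g (12.88), Tnfaip2 (12.72), Samd14 (12.69), Borcs5 (8.97), Apoe (8.17), Sh2d5 (7.06), Car2 (6.45), Top2a (3.25), Dntt (2.71) and Jun (1.97). Borcs5 rests on 1 knockout CILP library, with 0 and 1582.9 CPM in the 2.

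Among 16 sets of values checked for an outlying library, 6 had one. By chance the rule flags about 1 in 20 sets of normally distributed values. CPM values are skewed and often 0, also in the wild-type CLP sets of Id2 and Gata3, so that rate cannot be relied on here. In the wild-type CLP sets of Tcf7 and Zbtb16 the flagged value was 1 count beside 7 libraries at 0, where any count stands apart and the chance rate means little. The 6 were Id2 at 84.8 CPM in wild-type CLP replicate 6, Gata3 at 588.1 CPM and Tcf7 at 8.2 CPM in wild-type CLP replicate 4, and Zbtb16 at 8.4 CPM in wild-type CLP replicate 5. The others were the mast cell list at 4582.9 CPM in wild-type CILP replicate 5 and the myeloid list at 1945.2 CPM in wild-type CILP replicate 2.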

How the results depend on the processing

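The number of genes called in the Id2 knockout step depended on the processing, and the cause was not tested. Against 3 calls in the 47-library model, limma-voom with quality weights gave 455, DESeq2 gave 32, testing without the filter 14, omitting the batch term 1, and leaving out low-depth libraries 9. Batch 1 alone gave 92 and the Id2 knockout libraries alone 122. The 10 batch 1 libraries of wild-type and knockout CLP and CILP gave 111. Leaving out 1 library gave 0 to 53, with 0 to 1 for knockout libraries in the 47-library model, and 38 or 35 without a knockout CILP library and 53 or 47 without a CLP library in batch 1. The 10-library fit and the batch 1 fits without 1 library were chosen after seeing the data. The wild-type step had 473 calls, and limma-voom gave 729, batch 1 alone 168 and the 10 libraries 197. For the difference from wild type (4 calls), DESeq2 gave 15, limma-voom 201, no filter 10, batch 1 alone 35 and the 10 libraries 33. Leaving out 1 library gave 1 to 5 calls in the 47-library model (5 without wild-type CLP replicate 6), and in batch 1 18 without either knockout CILP library and 19 and 14 without a CLP library. For the difference from the Tcf7 knockout (1 call), DESeq2 gave 12, limma-voom 183, no filter 8 and batch 1 alone 58, and leaving out either knockout CILP library gave 0.

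Among single genes, the log2 change of the knockout step changed sign for Lmo4, at −0.05 in limma-voom. Leaving out 1 library in turn also took some changes across 0: Lmo4 ranged from −0.57 to 0.43, Ccne1 from −5.92 to 1.94, Nipal1 from −0.96 to 0.78, Nfil3 from −2.22 to 2.86, Ets1 from −0.40 to 0.94, Maf from −3.96 to 3.63, Tcf12 from −0.11 to 0.85 and Lyl1 from −1.88 to 0.28. None of these passed the test. The difference of steps for Gata3 was 2.70 in the 47-library model and −1.48 in limma-voom, −1.59 in batch 1 and −1.57 in the 10 libraries, and did not pass. No paired analysis was possible because the labels carry no replicate numbers (numbers were given in accession order).

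Knockout libraries of 134985 to 267545 counts put 3 counts over a group at 7.56 CPM in CLP and 7.81 CPM in CILP. These are the levels that the bounds use and not limits of detection. A single count was 6.89 and 3.97 CPM in the CLP libraries and 6.13 and 4.52 CPM in the CILP libraries.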
